A study of Caenorhabditis elegans with 18 samples.

Results

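Small RNA of early Caenorhabditis elegans embryos lacking the histone methyltransferase MET-2 was compared directly with that of embryos lacking the histone methyltransferase SET-25. The comparison used 6 of the 18 libraries of the series, namely all 3 labelled met-2 and all 3 labelled set-25, with wild type left out of the contrast. The met-2 embryos carried met-2(n4256) III and the set-25 embryos carried set-25(n5021) III, and no other allele or agent is named for either. Shown beside them are wild type N2 (Bristol), the nrde-3(tm1116) X mutant, and double mutants in which nrde-3(tm1116) was combined with either methyltransferase allele. Embryos were taken before the bean stage, 60 to 65 h after synchronised first larvae were put to grow, and each library is a pool of whole embryos. In such pools, fewer cells of a type and less RNA per cell cannot be told apart. Each strain has libraries numbered 1 to 3, although the protocol for growth speaks of 2 biological replicates, so the p-values below reflect a spread among libraries that may be technical.

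Both enzymes methylate lysine 9 of histone H3, the mark of silent chromatin over repeats and transposons. In worm embryos MET-2, the relative of mammalian SETDB1, adds the first methyl groups, and SET-25 adds the last. Many worm small RNAs are antisense to genes and repeats and are made by RNA-dependent RNA polymerases on RNA templates. Argonaute proteins bind them, and NRDE-3 is the Argonaute that carries a class of them into the nuclei of somatic cells. Repeats and the histone mark are denser on the arms of worm chromosomes than in their centres.

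The values are counts of reads in bins of 20 bp on genome build ce10, with both strands and all read lengths together. They cover all of chromosome I and the first 5.9 Mb of chromosome II, 1048575 bins in all, which were also summed to 20973 windows of 1 kb. The 6 libraries held 3618255 to 4207472 reads, against 1680028 to 4384593 over all 18. Bins and windows are given by position because no annotation of ce10 was used here, so it is not known which genes or repeats they hold. The genes met-2 and set-25 lie on chromosome III, outside the regions covered, so the genotypes could not be checked in the reads. Levels are reads scaled as CPM with edgeR's TMM factors, given as mean ± SD with n = 3, and changes are log2 fold changes, met-2 minus set-25, ± SE from edgeR.

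The met-2 libraries stood apart from every other library, set-25 included. Over the 10730 windows tested, the rank correlation of levels between a met-2 library and one of the 15 others ranged from 0.70 to 0.80 over 45 pairs. Among those 15 others, libraries of different groups correlated at 0.83 to 0.95 over 90 pairs. The 3 met-2 libraries were alike among themselves, at 0.96 in each pair, and the 3 set-25 libraries correlated at 0.95 to 0.96. The libraries labelled met-2;nrde-3, which carry the same met-2 allele, correlated with met-2 at 0.70 to 0.77 and with set-25 at 0.85 to 0.94. The labels give no batch, so the genotype and a batch of the met-2 libraries cannot be told apart. Every difference below between met-2 and set-25 rests on these met-2 libraries.

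A large part of the windows with enough reads to test differed between the mutants. Of 10730 windows, edgeR called 3956 at an adjusted p under 0.05 (36.9%). Of these, 1566 were higher in met-2 (14.6%) and 2390 were lower (22.3%). The falls were larger than the rises. The median change was -2.03 over the lower windows and 0.97 over the higher ones, beside -0.01 over all windows tested. At least 2-fold changes were seen in 751 higher (7%) and 1978 lower windows (18.4%), and at least 8-fold changes in 107 (0.997%) and 510 (4.75%). Changes of 16-fold or more were called upward in 48 windows (0.447%) and downward in 154 (1.44%). Single bins of 20 bp gave a similar picture, with 13368 of 38100 bins called (35.1%), 5343 of them higher (14%) and 8025 lower (21.1%), and medians of 2.08 and -2.73.

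**Figure D1:**
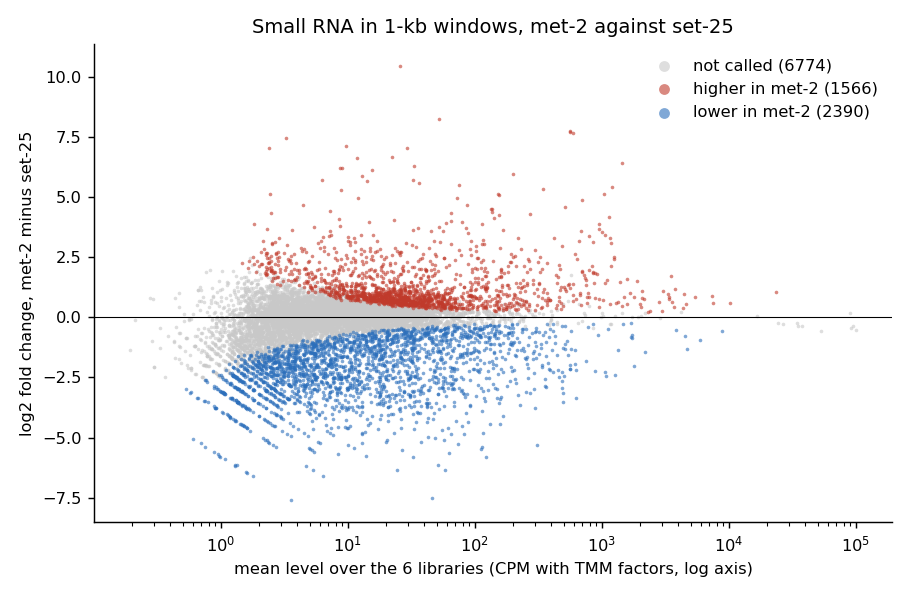
Each point is a tested window of 1 kb, with its mean level over the 6 libraries on a log axis (CPM with TMM factors) and its log2 fold change, met-2 minus set-25. Red points are the 1566 windows called higher in met-2, blue points the 2390 called lower and grey points the windows not called; the blue cloud reaches far below 0 at every level, while red points are few at the lowest levels.

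Among windows with few reads, nearly all calls were falls. Of the 1073 windows with the lowest mean level, up to 1.92 CPM, 8 were higher in met-2 (0.746%) and 251 lower (23.4%). Of the 1073 with the highest, from 59.6 CPM upward, 431 were higher (40.2%) and 397 lower (37.0%). Over all windows tested these shares were 14.6% and 22.3%. The median SE of a change was 0.80 in the first of these classes and 0.13 in the second, so small changes could pass the threshold mainly among abundant windows. The filter on low counts used all 18 libraries, so windows low in both mutants could be tested because of reads in other groups. What part this had in the split of the lowest class was not tested. Over all levels, 39.6% of the calls were higher, and 46.3% in a fit on the 6 libraries alone. Rises and falls occurred in windows of every shape. Where 1 bin held over 50% of a window's reads, 125 windows were higher (17.3%) and 150 lower (20.7%) of 723. Where no bin held 10%, 88 were higher (17.6%) and 92 lower (18.4%) of 501. These shares lay near those over all windows tested.

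Outside the right end of chromosome I, most reads of both mutants lay in windows that differed. There, the windows called higher held 63.1% ± 0.170 of the reads in met-2 and 34.2% ± 0.237 in set-25 (n = 3). The windows called lower held 14.3% ± 0.0725 in met-2 and 41.0% ± 0.328 in set-25. These shares come from the contrast that chose the windows and are a description. N2 was outside the contrast, but it entered the filter, the scaling and the shared estimate of spread. Its shares, 34.3% ± 0.549 and 43.1% ± 0.452, lay near those of set-25.

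Most of the largest rises were windows with few reads in set-25 and many more in met-2. The 15 largest were taken among called windows whose groups did not overlap and whose higher group mean was above the median of the windows tested. All 15 were on chromosome I, in 9 stretches of adjoining called windows. The longest of these stretches, I: 7133001-7140000, spans 7 windows and 3 of the 15. Its total was 3733, 3718 and 3695 CPM in the 3 met-2 libraries and 69.4, 70.8 and 76.3 in the 3 set-25 libraries. In its middle window, I: 7136001-7137000, met-2 held 1122, 1123 and 1093 CPM while set-25 held 5.26, 4.18 and 6.46. The groups did not overlap, and the change was 7.72 ± 0.29 (adjusted p = 2.55e-18). Reads filled this window rather than piling up in a point, since 39 of 39 bins tested were higher and the highest bin held 10.5% of the reads. The windows on either side, I: 7135001-7136000 and I: 7137001-7138000, changed by 7.77 ± 0.24 and 7.68 ± 0.23.

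A second abundant rise lay at I: 5299001-5300000, within a stretch of 3 windows. The met-2 libraries held 2850.2, 2969 and 2796 CPM there and the set-25 libraries 34.0, 29.8 and 36.9, a change of 6.42 ± 0.14 (adjusted p = 2.02e-22). All met-2 values were far above all set-25 values, which lay around the 37.5 ± 1.696 of N2. Of 36 bins tested in it, 36 were higher. At I: 11968020-11969019, met-2 held 419, 408 and 360.3 CPM and set-25 5.26, 9.67 and 3.69, a change of 5.95 ± 0.23 (adjusted p = 4.94e-18). Here too the groups did not overlap, and the called stretch ran over 4 windows.

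Several rises came from near silence. At I: 7948001-7949000 the met-2 libraries held 45.9, 58.2 and 51.3 CPM, 555 reads in all, and no set-25 library had a read. Against a floor of 3 reads over the set-25 group, met-2 was at least 171-fold higher. At I: 8824001-8825000, 1110 reads in met-2 stood against 3 in set-25, a ratio of 342 with a 95% counting interval of 117 to 1659. That interval covers counting error only. N2, nrde-3 and both double mutants also held means under 1 CPM in these windows, so met-2 was the one group of the 6 with reads in quantity there. At I: 6763001-6764000, met-2 held 67.9, 67.6 and 61.1 CPM and set-25 0.351, 0.523 and 1.54, a change of 6.28 ± 0.43 (adjusted p = 1.17e-12). It was 7.08 without set-25 replicate 3, the library with most of the 8 set-25 reads. The other named rises of this kind, at I: 4851001-4852000, I: 4852001-4853000, I: 5432001-5433000, I: 7951001-7952000 and I: 8825001-8826000, held means of 17.6 to 58.3 CPM in met-2 and 0.103 to 0.439 in set-25, with no overlap between the groups. With 1 to 4 reads in set-25, the fitted changes at I: 4851001-4852000, I: 7951001-7952000 and I: 8824001-8825000 moved by over 1.5 times when a set-25 library was left out, and all stayed called.

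One of the 9 stretches was uneven within met-2. At I: 12095020-12096019 the met-2 libraries held 98.6, 19.3 and 14.3 CPM and the set-25 libraries 0.351, 0.261 and 0.615. Replicate 1 stood far above the other met-2 libraries, although the groups did not overlap. The change was 6.66 ± 0.81 (adjusted p = 9.3e-08), and 5.25 without that replicate (adjusted p = 2.28e-06). The neighbour at I: 12097020-12098019 showed the same unevenness, with 39.2, 6.53 and 5.96 CPM in met-2, where 2 reads in set-25 against 195 gave a ratio of 90.0 (24.6 to 749) over all 3 libraries. Its fitted change, which depends on the prior count at so few reads, was 6.20, and it was 4.74 without met-2 replicate 1 and 8.88 without set-25 replicate 2, which held both set-25 reads.

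Most of the largest falls were windows with reads in set-25 that were nearly empty in met-2. Of the 15 largest by the same rule, 12 were on chromosome I and 3 on chromosome II, in 11 stretches. The first of them was I: 842001-843000, where met-2 held 1.03, 0 and 0.298 CPM and set-25 97.1, 90.2 and 88.0. The groups did not overlap, with 5 reads against 908 and a change of -7.52 ± 0.28 (adjusted p = 2.17e-18), or -8.98 without met-2 replicate 1. At I: 3107001-3108000, met-2 held 0.774, 0.852 and 2.68 CPM and set-25 119, 113 and 115, a change of -6.33 ± 0.23 (adjusted p = 1.13e-18), or -7.08 without met-2 replicate 3. Both falls were larger when the met-2 library with most of the few reads was left out. In this window set-25 was also above the 49.0 ± 6.34 of N2, so the distance between the mutants was larger than that of either from wild type. I: 3109001-3110000, in the same stretch, held 1.29, 1.99 and 0.894 CPM in met-2 and 117, 98.5 and 89.5 in set-25, a change of -6.15 ± 0.24.

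A longer stretch of falls lay at I: 1068001-1073000. Its total was 34.6, 29.5 and 33.1 CPM in met-2 and 935, 906 and 873 in set-25, without overlap. Its first window changed by -5.83 ± 0.16 (adjusted p = 1.05e-20), its second by -5.47 ± 0.20 and the next by -5.79 ± 0.24, or -6.48 without met-2 replicate 3. In the first window 19 of 21 bins tested were lower and none was higher. Elsewhere on chromosome I, I: 7894001-7895000 held 0.774, 0.284 and 0.596 CPM in met-2 and 46.6, 44.4 and 54.4 in set-25, a change of -6.35 ± 0.32 (adjusted p = 1.16e-15). The groups were far apart, and set-25 lay near N2 at 50.7 ± 5.19. At I: 12559020-12560019, 1 read in met-2 stood against 125 in set-25, a ratio of 135 in favour of set-25 (95% counting interval 23.9 to 5389). On chromosome II the pair of windows from 2924017 to 2926016 behaved alike. The first held 5.94, 4.26 and 5.36 CPM in met-2 and 235, 232 and 203 in set-25, a change of -5.41 ± 0.15 (adjusted p = 7.82e-21), and the second changed by -5.64 ± 0.27. Low in reads were the falls at I: 14129020-14130019, I: 981001-982000, I: 1718001-1719000 and II: 1792017-1793016, with means of 0.289 to 1.08 CPM in met-2 and 16.4 to 52.2 in set-25. With 3 to 12 reads in met-2, each of these 4 falls became over 1.5 times larger when met-2 replicate 1 or 2 was left out. The fall with the highest set-25 level of the 15, I: 5271001-5272000, is given beside N2 further on.

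**Figure D2:**
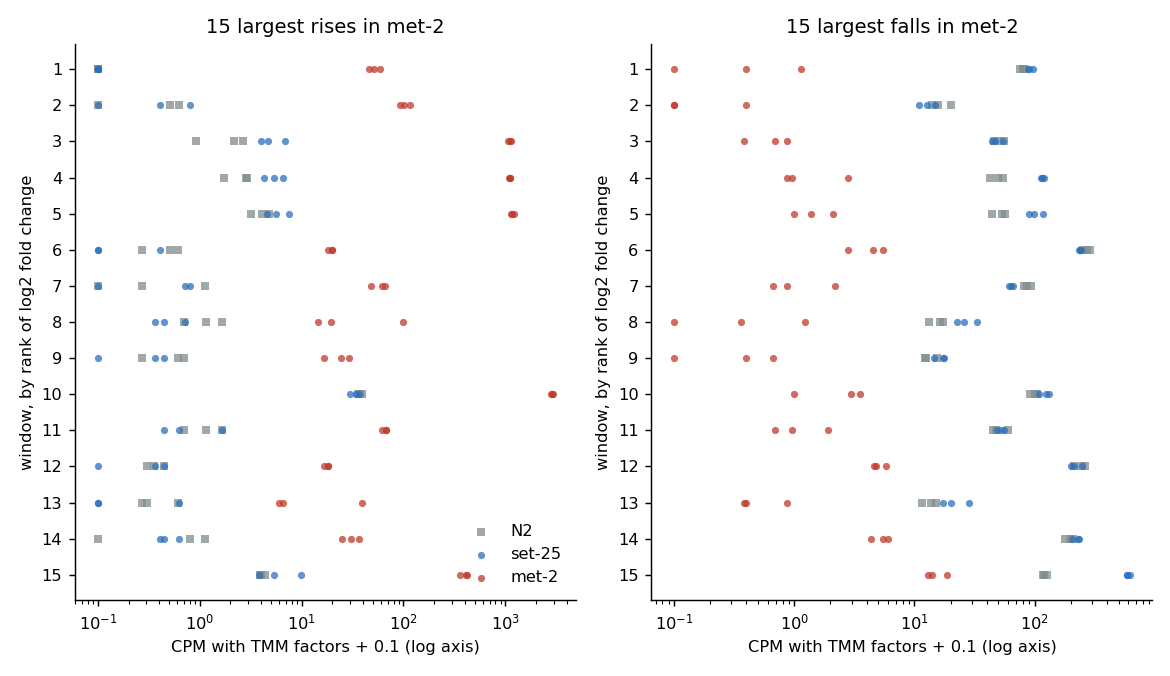
The 15 largest rises (left) and 15 largest falls (right) in met-2, ordered by log2 fold change, with 1 point per library on a log axis of CPM with TMM factors + 0.1. Red circles are met-2, blue circles set-25 and grey squares N2; in most windows the blue and grey points lie together while the red points stand apart.

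Many called windows adjoined another of the same direction, and many stood alone. The 2390 lower windows formed 1236 stretches, of which 713 were single windows. Another 262 had 3 windows or more and held 1155 windows. The 1566 higher windows formed 1012 stretches, of which 702 were single windows, while 125 had 3 or more and held 494. Whether this exceeds what the share of called windows alone would give was not tested. The longest lower stretch, II: 1446017-1463016, ran over 17 windows and held 1065, 1139 and 1018 CPM in met-2 and 6222, 5839 and 5049.6 in set-25. Every window of it was lower, by -3.55 to -1.84. A lower stretch of 15 windows at I: 13251020-13266019 held 237, 217 and 217 CPM in met-2 and 2075, 2054 and 1934 in set-25. The longest higher stretch, I: 14882020-14895019, ran over 13 windows with 14690.5, 15866 and 16112 CPM in met-2 and 2612, 2545 and 2524 in set-25. It was also among the most abundant, with window changes from 1.14 to 3.66. A further higher stretch of 8 windows, I: 2054001-2062000, held 9594, 9719.9 and 9769 CPM in met-2 and 2446, 2475 and 2374 in set-25.

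**Figure D3:**
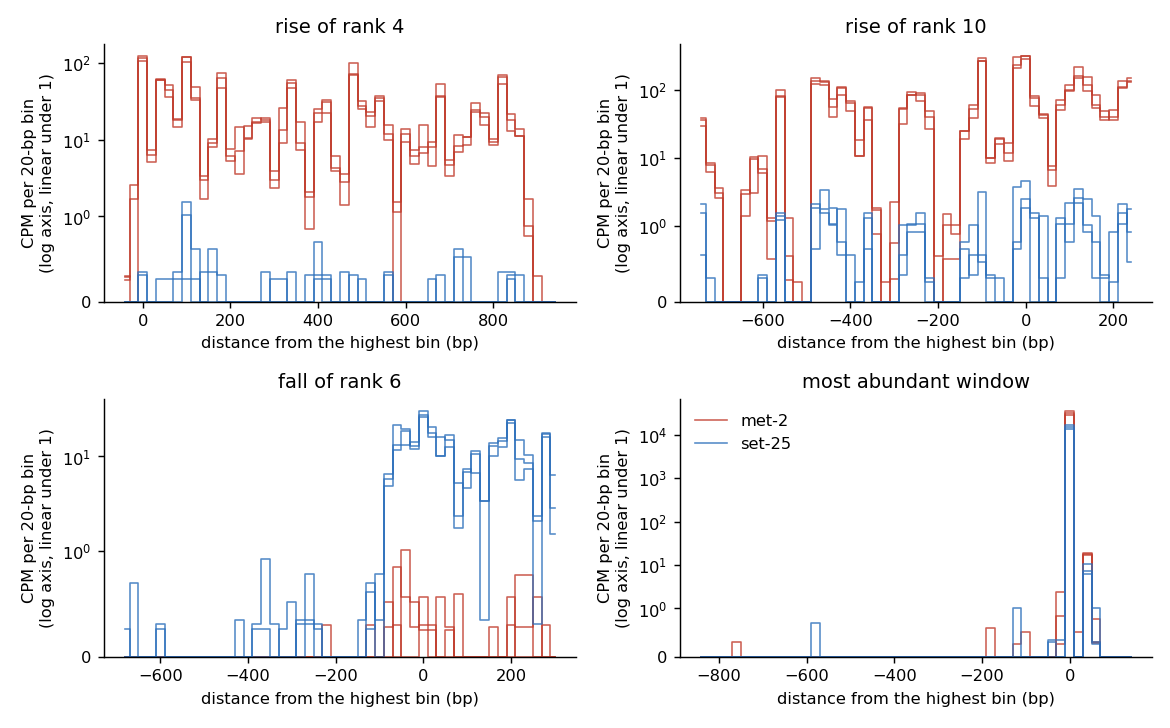
Reads per bin of 20 bp (CPM, log axis, linear under 1) against distance from the highest bin in bp, for 4 windows of 1 kb: I: 7136001-7137000 (rise of rank 4), I: 5299001-5300000 (rise of rank 10), I: 1068001-1069000 (fall of rank 6) and II: 2452017-2453016 (the most abundant window). Each line is a library, red for met-2 and blue for set-25; in the first 3 windows the red and blue lines differ over many bins, and in the last nearly all reads sit in 1 bin in both groups.

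The most abundant windows outside the right end of chromosome I also differed, by smaller factors. Of the 10 highest, 6 were higher in met-2 and 4 lower. The first of them, II: 2452017-2453016, held 34089.8, 31482 and 28987 CPM in met-2 and 16721, 15068 and 13744 in set-25, a change of 1.05 ± 0.13 (adjusted p = 2.4e-07). The groups did not overlap, and a single bin of 20 bp held 99.9% of the reads of the window, so this is a point source and not a stretch. N2 lay between them at 22484 ± 2159.

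The other 5 rises among the 10 were on chromosome I and less concentrated, with 14.4% to 46.8% of a window's reads in its highest bin. At I: 13661020-13662019, met-2 held 9708, 9394 and 9714 CPM and set-25 5179, 5252 and 5009, a change of 0.90 ± 0.09 (adjusted p = 1.27e-09). Libraries of each group lay close together there, and N2 was near set-25 at 5927 ± 27.7. Windows at I: 12655020-12656019, I: 13957020-13958019 and I: 2631001-2632000 rose by 0.83 ± 0.09, 0.61 ± 0.09 and 0.54 ± 0.11. The rise of 0.58 ± 0.17 at I: 11061020-11062019 (adjusted p = 0.00599) lost its call without set-25 replicate 3 (adjusted p = 0.0594, and at most that over its other alternatives).

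Among the falls of this group, II: 3306017-3307016 held 4106, 3898 and 4054 CPM in met-2 and 7826, 8311 and 7343 in set-25, a change of -0.96 ± 0.18 (adjusted p = 0.00011). Both mutants were below the 15532 ± 1458 of N2, met-2 the further. At II: 1820017-1821016 the order was the same, with 2485, 2789 and 2878 CPM in met-2, 7300.2, 6922 and 5930.3 in set-25 and 11682 ± 296 in N2, a change of -1.31 ± 0.16 between the mutants (adjusted p = 1.12e-07). The adjoining windows I: 2149001-2150000 and I: 2150001-2151000 were lower in met-2 by -0.78 ± 0.16 and -0.57 ± 0.17. The second of these calls was lost when only library totals were used for scaling (adjusted p = 0.0846, and at most that over its other alternatives).

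The balance of rises and falls differed along the chromosomes. Over all windows tested, 14.6% were higher in met-2 and 22.3% lower. In the centre of chromosome I, from 4 to 11 Mb, 623 of 3546 windows were higher in met-2 (17.6%) and 396 lower (11.2%), with a median change of 0.16. On both arms of chromosome I falls outnumbered rises, with shares near those over all windows. The left arm had 260 higher and 561 lower of 2244 windows (median -0.09), and the right arm without its end had 313 and 589 of 2228 (median -0.12). The left arm of chromosome II, up to 5 Mb, had 305 higher (13.2%) and 791 lower (34.2%) of 2316 (median -0.36). From 5 Mb on the numbers were 63 (16.4%) and 53 (13.8%) of 383 (median 0.20). The block with the most falls was II from 1 to 2 Mb, where 50 windows were higher and 243 lower of 545, with a median of -0.93. These are counts over windows, which are not replicates, and no test was made between regions.

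**Figure D4:**
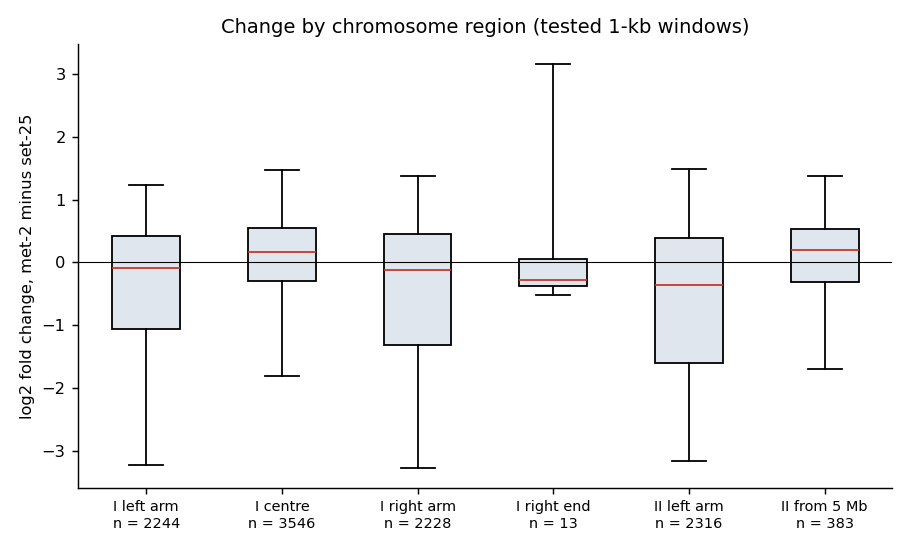
Log2 fold change, met-2 minus set-25, of the tested windows of 1 kb in 6 regions of the covered genome. Boxes span the interquartile range of the windows with the median in red, and whiskers reach the 5th and 95th percentiles; the boxes of the chromosome arms extend further below 0 than those of the centre of chromosome I and of chromosome II from 5 Mb.

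Chromosome II also took a smaller share of the reads in met-2. Leaving out the right end of chromosome I, chromosome II held 26.9% ± 0.673 of reads in met-2 and 33.1% ± 0.185 in set-25 (n = 3), a difference of -6.29 points. All 3 met-2 libraries lay below all 3 set-25 libraries (p = 0.1 in an exact two-sided permutation test, where 3 against 3 can give no smaller p, and adjusted p = 0.3 over 6 shares). With the right end kept in the total, the difference was -0.27 points (exact permutation p = 0.9). The right arm of chromosome I held 28.6% ± 0.867 in met-2 and 23.7% ± 0.237 in set-25, and the chromosome centre 26.2% ± 0.612 and 23.8% ± 0.547. The right arm thus held more of the reads in met-2 although more of its windows fell than rose.

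The right end of chromosome I, where worms carry an array of ribosomal RNA genes, was taken as the last 13 windows of the covered sequence. Which of these windows hold ribosomal RNA genes was not determined. This end took the largest share of reads in both mutants. That share was 44.1% to 52.9% in the met-2 libraries and 52.8% to 60.5% in the set-25 libraries. The ranges overlapped slightly and the difference of -8.97 points gave p = 0.2 in the exact permutation test, two-sided (adjusted p = 0.4 over 6 shares). In N2 the share was 27.0% ± 5.15. Of the 13 windows, the first 11 were not called, with changes from -0.56 to 0.17 and SEs of 0.23 to 0.31. At I: 15065020-15066019, for example, met-2 held 71929, 74238 and 102076 CPM and set-25 144713, 100144 and 110365. The spread within each group was wide there and the groups overlapped. With a fit on the 6 libraries alone, 7 of the 11 passed the threshold, all lower in met-2, with changes of -0.59 to -0.29, and 6 did so without a filter on low counts.

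The last 2 windows were different. At I: 15071020-15072019, met-2 held 1067, 1273 and 1214 CPM and set-25 129.7, 140.4 and 127, a change of 3.16 ± 0.12 (adjusted p = 7.38e-18). The final window, I: 15072020-15072423, which is shorter than 1 kb, held 293, 316 and 315 CPM in met-2 and 23.5, 28.5 and 23.1 in set-25, a change of 3.61 ± 0.15 (adjusted p = 3.14e-17). In both windows all met-2 values were above all set-25 values, and N2, at 152 ± 6.19 and 28.3 ± 5.33, lay near set-25. Of the bins of the whole right end, 152 of 545 were higher in met-2 and 8 lower, so bins inside windows that were not called did differ. In I: 15064020-15065019, 33 of 50 bins were higher and none lower, while the window as a whole changed by 0.17 ± 0.23.

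Opposite changes inside a window also occurred elsewhere. Of 2577 windows with a called bin, 134 held called bins of both directions, and 48 of these were not called as windows. The window with most such bins on the smaller side, I: 13960020-13961019, had 10 bins higher and 15 lower of 36 tested, beside a window change of 0.86 ± 0.09 (adjusted p = 1.47e-08). At II: 2161017-2162016, 22 bins were higher and 6 lower of 32, with a window change of 2.43 ± 0.10 (adjusted p = 2.82e-17). These examples were chosen after their values were seen.

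Wild type was not part of the contrast, and its levels show on which side of it each mutant lay. The differences between levels in the next sentences are on a log2(CPM + 0.5) scale. In 1390 of the 1566 higher windows and 2215 of the 2390 lower windows, set-25 lay nearer to N2 than met-2 did, as it did in 73.9% of all windows tested. Median met-2 levels were 0.78 above N2 in the higher windows and -1.74 from N2 in the lower ones. The corresponding medians for set-25 were -0.12 and 0.04. Of the 15 largest rises and the 15 largest falls, 14 and 13 had a set-25 level within 2-fold of N2, and none had a met-2 level within it. Over all windows tested, 96.3% had a set-25 level within 2-fold of N2 and 71.9% a met-2 level within it. The named windows were chosen by the size of the change between the mutants, so their counts are a description.

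In a few other windows it was set-25 that lay away from N2. Candidates had met-2 within 0.5 of N2 and set-25 at least 1 away in log2 level. They were 8 windows beside the 1566 called higher and 15 beside the 2390 called lower. At I: 12499020-12500019, met-2 held 519, 531 and 499 CPM and set-25 138, 144 and 131, with N2 at 367 ± 17.1 between them and nearer to met-2. The groups did not overlap, and the change was 1.90 ± 0.12 (adjusted p = 1.41e-13). At I: 6822001-6823000, met-2 stood at 27.9 ± 5.83 CPM and N2 at 34.7 ± 6.96, while set-25 was at 8.43 ± 2.70, a change of 1.73 ± 0.25 (adjusted p = 1.71e-06). The window I: 9474001-9475000 went the other way, with met-2 at 4.28 ± 1.88, N2 at 5.85 ± 2.27 and set-25 at 18.5 ± 2.67 CPM, a change of -2.08 ± 0.34 (adjusted p = 1.16e-05). These windows, too, were picked after their levels were known. Windows could also lie on opposite sides of N2, as I: 5271001-5272000 did, with 12.9, 13.9 and 18.5 CPM in met-2, 121 ± 4.67 in N2 and 619, 588 and 591 in set-25, a change of -5.31 ± 0.16 (adjusted p = 3.51e-20).

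The double mutants allow the same pair of enzymes to be compared where nrde-3 is lost as well, in libraries that share none with the 6 above. There, met-2;nrde-3 and set-25;nrde-3 differed in 736 of 10730 windows (6.86%), 352 higher (3.28%) and 384 lower (3.58%) in met-2;nrde-3. Libraries 1 and 2 of met-2;nrde-3 had reads in only 5.76% and 7.19% of bins, against 11.3% to 17.9% in the 16 others. The met-2;nrde-3 libraries were also less alike, with rank correlations of 0.81 to 0.89 among themselves. Among the set-25;nrde-3 libraries these were 0.93 to 0.94. What part either had in the double contrast, and in the calls shared with it, was not tested. Of the 1566 windows higher in met-2 than set-25, 36 were called in the same direction in the double mutants (2.30%) and 113 in the opposite one. Of the 2390 lower windows, 112 were called in the same direction (4.69%) and 162 in the opposite one. Across windows, which are not independent replicates, the changes of the 2 contrasts had a rank correlation of -0.09.

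The difference between the 2 contrasts was tested directly as an interaction. It was called in 3337 of 10730 windows by edgeR (31.1%), in 1318 with a value above 0 (12.3%) and in 2019 with a value below 0 (18.8%). The split by direction depended on the setting, with 392 above and 3081 below 0 under scaling by library totals, which moved the median interaction to -0.70, and 1867 and 1849 without met-2;nrde-3 replicate 3. Of the windows called between the single mutants, it was called in 64.5% of the higher and 75.1% of the lower ones, shares that are a description because the interaction contains the contrast that chose them. At I: 7135001-7136000, where met-2 exceeded set-25 by 7.77 ± 0.24, met-2;nrde-3 held 2.11 ± 1.11 and set-25;nrde-3 3.23 ± 1.15 CPM, and the interaction was 8.43 ± 0.65 (adjusted p = 2.62e-11). At I: 5299001-5300000 met-2;nrde-3 held 29.1 ± 6.61 CPM, against 29.7 ± 1.85 for set-25;nrde-3, with an interaction of 6.42 ± 0.20 (adjusted p = 3.25e-19).

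**Figure D5:**
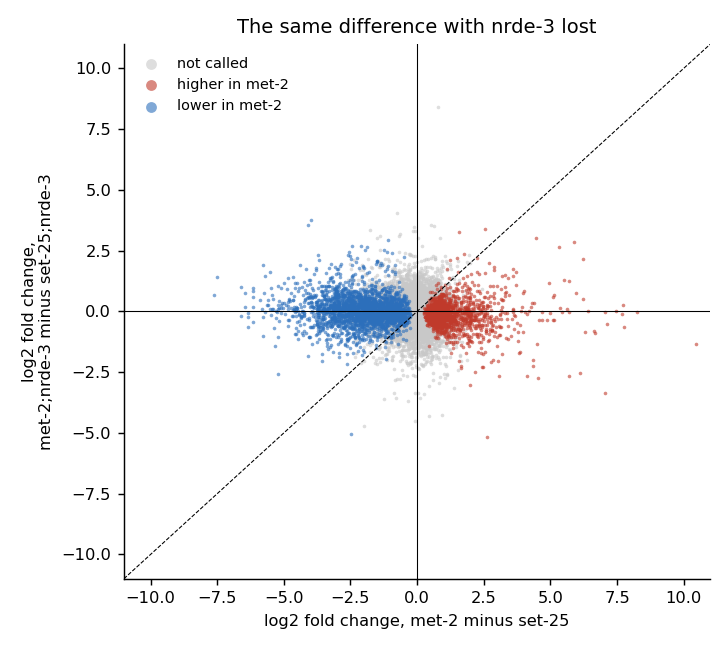
Each point is a tested window of 1 kb, with the log2 fold change of met-2 minus set-25 on the x axis and of met-2;nrde-3 minus set-25;nrde-3 on the y axis, both on the same scale, and the dashed line marks equal changes. Red and blue points are windows called higher or lower in met-2 than in set-25; they spread along the x axis and not along the dashed line, with a rank correlation of -0.09 over all 10730 windows.

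In some windows the order of the mutants turned over. At II: 311017-312016, met-2 held 14.97, 20.5 and 19.4 CPM and set-25 326, 335 and 284, a change of -4.11 ± 0.29 (adjusted p = 1.43e-12). In the double mutants the levels were 414 ± 92.5 for met-2;nrde-3 and 35.7 ± 3.90 for set-25;nrde-3, a change of 3.54 ± 0.27 (adjusted p = 4.56e-10). For II: 2996017-2997016 the values were -3.99 ± 0.28 and 3.75 ± 0.27. The abundant windows II: 3306017-3307016 and II: 1820017-1821016, lower in met-2 than in set-25, were likewise higher in met-2;nrde-3 than in set-25;nrde-3, by 1.68 ± 0.19 and 1.89 ± 0.16.

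A smaller set kept its direction. I: 5271001-5272000 changed by -5.31 ± 0.16 in the single and -1.41 ± 0.13 in the double mutants (adjusted p = 1.05e-08 for the second), where met-2;nrde-3 held 195 ± 45.2 CPM against 520.1 ± 36.3 for set-25;nrde-3. I: 509001-510000 changed by -1.52 ± 0.12 and -1.18 ± 0.12, and I: 3753001-3754000 by -1.54 ± 0.26 and -1.52 ± 0.25. Among rises, I: 5875001-5876000 changed by 2.34 ± 0.35 and 1.54 ± 0.40. The last 2 windows of chromosome I were also higher in both contrasts, by 0.93 ± 0.12 and 1.46 ± 0.18 in the double mutants. The 11 windows before them, not called in the single mutants, were all lower in met-2;nrde-3 than in set-25;nrde-3, by -2.34 to -0.86.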

How the data were processed

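Per the labels' protocols, small RNA was treated with TAP, which makes capped and triphosphate ends ligatable, and sequenced as single-end reads of 50 bases. Per the series' design text, adapters were clipped and identical reads collapsed in the FASTX-Toolkit, and QuasR placed reads on WS220, which the submitters' processing notes call ce10. The deposited values are whole-number counts of reads per bin and library; how reads across bins were assigned, the strand and the read lengths are not given in the sources used here, and the stated scaling to total reads is not seen in whole numbers. The values are not numbers of distinct sequences, since a window with 99.9% of its reads in 1 bin held 340219 in met-2. With no build-matched annotation, no gene names were assigned.

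Counts were summed to windows of 1 kb. All 18 libraries entered a model with 1 coefficient per group in edgeR 4.0.16 under R 4.3.3, with filterByExpr (minimum count 10), TMM and glmQLFTest. Calls have an adjusted p (Benjamini-Hochberg) under 0.05 over all features tested. An SE is the absolute change over the root of F. Shares used exact permutation tests. The windows named are the 15 largest rises and falls past the threshold, with the higher group mean above the median and groups that do not overlap, the 10 most abundant, the last 13 of chromosome I and 5 interactions each way. Others were chosen after their values were seen. The comparison and these lists were chosen with earlier results of these data known. A group with 3 reads or fewer gets a bound or a counting ratio, not a fitted fold. The test was checked on simulated data. No pair of libraries within met-2 or set-25 was a duplicate (chi-square per window 4.17 to 9.73). Alternatives used DESeq2 1.42.0, limma 3.58.1 and the settings named at the end; the package data.table (version 1.17.8), pandas 2.3.3, numpy 2.4.6 and matplotlib 3.10.9 handled tables and plots.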

Additional observations from a re-analysis of the deposited data

Results flagged for a closer look

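The difference between met-2 and set-25 was not the same with and without nrde-3, by the interaction test of edgeR, in 1318 windows with a value above 0 and 2019 with a value below 0 (adjusted p under 0.05), or 392 and 3081 under scaling by library totals and 1867 and 1849 without met-2;nrde-3 replicate 3. The largest values above 0 were at I: 7948001-7949000 (11.80), I: 4852001-4853000 (8.64), I: 7135001-7136000 (8.43), I: 8018001-8019000 (8.38) and I: 8824001-8825000 (8.26). The first and the last of these rest on 3 reads or fewer in set-25, and all 5 on few reads in the double mutants, so their fitted size depends on the prior count and is no measure of a fold. The largest values below 0 were at I: 842001-843000 (-8.92), II: 2996017-2997016 (-7.74), II: 311017-312016 (-7.65), I: 14855020-14856019 (-7.63) and I: 981001-982000 (-7.16). At I: 14855020-14856019 the single mutants held 4 and 2 reads, and the value comes from 129 ± 29.2 CPM in met-2;nrde-3 against 0.344 ± 0.315 in set-25;nrde-3 (n = 3). This interaction lost its call without set-25 replicate 1 (adjusted p = 0.0644) or 2 (adjusted p = 0.0609), the highest values over its alternatives. At I: 981001-982000 met-2 held 3 reads. The value at I: 842001-843000 rests on a fall in met-2 and on set-25;nrde-3, at 28.5 ± 4.69 CPM, being below met-2;nrde-3, at 75.1 ± 5.11.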

How the results depend on the processing

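Several settings moved counts by over 1.5 times. A minimum count of 100 left 3126 windows and 4575 bins, with 1004 windows higher and 1116 lower, 1626 bins higher and 1597 lower, and 1950 interactions. Windows of 5 kb gave 814 higher and 1008 lower of 3731. Filtering, scaling and fitting the 6 libraries alone, which moved no count by that much, gave 1973 windows higher and 2284 lower of 8794. Without a filter 3413 bins were higher. The share of calls that were higher was 40.0% for bins as reported, 50.4% at the stricter filter and 32.9% without a filter. Scaling by library totals moved the median interaction to -0.70 and its calls to 392 above and 3081 below 0; without met-2;nrde-3 replicate 3 they were 1867 and 1849. Leaving out each library in turn gave 1236 to 1380 higher and 2123 to 2181 lower windows, 4437 to 4650 and 7024 to 7362 bins, 2973 to 3716 interactions, and share differences of -11.3 to -6.78 points for the right end and -6.67 to -6.01 for chromosome II. Leaving out met-2;nrde-3 replicates 1 and 2, an alternative chosen after seeing the data, keeps 1 library of that group, so only median changes are given. These were -0.007 for windows and -0.09 for bins between the single mutants, and -0.0006 for the interaction. More windows and bins were called in each direction between the single mutants than as reported. With the replicate number as a block, calls were 1534 and 2336 windows, 5100 and 7789 bins and 3226 interactions. What remained of the log2 levels after taking off each group's mean was also correlated between met-2 and set-25 libraries. Libraries of the same number gave -0.063, 0.018 and -0.008 and those of different numbers -0.043 to 0.052, so no pairing by number was seen. Of 661 alternative values for the 42 named windows called, 659 kept direction and call. The exceptions were I: 2150001-2151000 under library totals and I: 11061020-11062019 without set-25 replicate 3 (adjusted p = 0.0594). The uncalled I: 15061020-15062019 changed sign without met-2 replicate 1 (-0.09) or 3 (-0.05) or set-25 replicate 2 (-0.13), over a range of -0.13 to 0.28 with each library left out. The cause of these moves was not tested. Depth limits windows of few reads, where only large falls or rises could be called.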

Other observations

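The first tested windows of both chromosomes also differed between the mutants; they were chosen after their values were seen. At I: 1001-2000, met-2 held 0, 0 and 0.894 CPM and set-25 6.31, 7.32 and 6.46, near N2 at 6.57 ± 0.838 (SD, n = 3). At II: 1-1016, met-2 held 22.5, 21.6 and 23.5 CPM and set-25 7.36, 8.10 and 10.2, with N2 at 9.34 ± 0.726, a change of 1.39 ± 0.24 (edgeR, adjusted p = 2.79e-05). Thus the first tested window of chromosome I was lower in met-2, while that of chromosome II and the last 2 windows of chromosome I were higher. A single window stands for each left end here, and that of chromosome I held few reads.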
